A study of Mus musculus with 5 samples.

Results

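The lysosome is the acid compartment in which phagocytes break down what they take up. Cathepsins and other proteases cut proteins there, glycosidases and lipid hydrolases take apart sugar chains and membranes, and the vacuolar ATPase pumps in the protons that these enzymes need. In antigen-presenting cells the same proteases cut the invariant chain and produce the peptides that MHC class II carries, so their activity is held in balance by cystatins, a family of protease inhibitors, and by the rate of acidification. Many lysosomal genes carry an E-box of the CLEAR type near their start, a motif bound by transcription factors of the MiT family (Tfeb, Tfe3, Mitf and Tfec).

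A list of 50 lysosomal genes was compared between brain dendritic cells (DCs) and bone marrow monocytes. The list was chosen by function: cathepsins and related proteases, their inhibitors, other hydrolases, membrane proteins and subunits of the vacuolar ATPase. Genes were read from Affymetrix probe sets that the platform annotation gives to exactly 1 symbol. Of the 50 genes, 49 had such a probe set, out of 18193 genes measured. Atp6v0c, a proteolipid of the membrane sector, had none in the annotation used and is not analysed here.

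The brain DC group held 2 arrays of Lin-CD45hiCD11c+ cells sorted from the brain of female C57BL/6 mice aged 6 to 8 weeks, which had been given B16-Flt3L tumour cells under the skin 12 days before harvest. B16 is a melanoma line, and Flt3L is Flt3 ligand, a growth factor that expands dendritic cells. The monocyte group held 3 arrays of SSCloCD11bhi CD115+ cells from the bone marrow of female C57BL/6 mice of the same age, with no treatment given in the labels. The labels do not say whether the arrays of a group stand for different animals. The p-values therefore rest on the spread between samples, joined with a spread estimated over all genes, and not on a known spread between animals. The spread between samples may be technical. Cell type, tissue and tumour treatment differ together between the groups and cannot be told apart. Values are on a log2 scale that is centred for each probe set, so 0 is not absence of a transcript, and only differences between arrays can be read. In sorted bulk RNA, a change in the share of a cell type and a change of RNA per cell cannot be told apart.

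Each difference is given on the log2 scale as the brain DC mean less the monocyte mean (n = 2 and 3 arrays), beside its SE from a limma model of all genes. A gene is called at a limma adjusted p under 0.05. An exact two-sided permutation test of these 5 arrays cannot go below p = 0.1 for a single gene. Where a brain DC array is left out below, the residual spread comes from the monocyte arrays alone. A call kept or lost in such a run does not measure the spread between brain DC arrays. All 10 markers of conventional dendritic cells were higher in brain DCs and all 6 measured monocyte markers lower. These lists hold the genes of sort markers: Itgax (CD11c) for brain DCs, and Itgam (CD11b) and Csf1r (CD115) for monocytes. The direction of those genes was in part set by the sort. Markers of other cells moved too: 9 of 11 microglial genes were higher in brain DCs, 1 (Cx3cr1) was lower and Trem2 was not called, with a list mean of 1.10 and 1.22 in the brain DC arrays against -0.43 to -0.27 in the monocyte arrays. Of 8 macrophage genes 6 were higher (list mean 2.24 and 2.37 against 0.10 to 0.23), Adgre1 was lower (-1.34) and Mrc1 was not called (0.05). The largest differences of that list were those of C1qa, C1qb and C1qc, from 4.46 to 6.23. Of 9 measured choroid plexus, glial and neuronal genes, only Ttr, the choroid plexus transthyretin gene, was called (7.22 ± 0.12). Natural killer cell genes were higher in 3 of 6, and 1 of 4 B cell genes was. Of 9 neutrophil and granule genes 4 were lower and 1 higher, with a list mean of 1.22 and 1.45 against 1.34 to 3.06. The lower ones were Mpo (-4.64), Prtn3 (-4.53), Ctsg (-3.57) and Elane (-2.38), and the higher one was S100a9 (1.41). The monocyte arrays were uneven in some of these genes, with Mpo at 1.81 in replicate 1 and at 5.72 and 5.22 in replicates 2 and 3. Since values are relative, it cannot be read which markers were at 0. The part of these cells in the results below was not tested. Poly-A control RNAs, which are spiked in at labelling, read higher in the brain DC arrays at all 24 of their probe sets (median difference 2.59).

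Lysosomal genes moved in both directions. Of the 49 measured, 8 rose and 13 fell in brain DCs relative to monocytes, and 28 did not pass the threshold. Over all genes, 16.9% were called higher and 16.9% lower, so the 13 lower genes make up a larger share of the list than the background and the 8 higher ones about the same share. At 2-fold or more, 4 members were higher and 5 lower, where 6.03% and 7.51% of all genes were. The median difference was -0.30 over the members and 0.09 over all genes, and 63.3% of members against 41.2% of all genes lay below 0. The groups did not overlap in 33 members (67.3%), beside 60.2% of all genes. Leaving out brain DC replicate 1 gave 8 lower members, where 2371 of the 18193 genes were then lower. Leaving out brain DC replicate 2 gave 5 higher members, where 13.5% of all genes were then higher. Reading each gene only from its highest-mean probe set also gave 5 higher members, where 14.3% of all genes were then higher. Values are centred for each probe set, so this mean is not signal and the pick need not be the brightest probe set. A changed call under this pick shows only that probe sets of a gene differ.

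**Figure D1:**
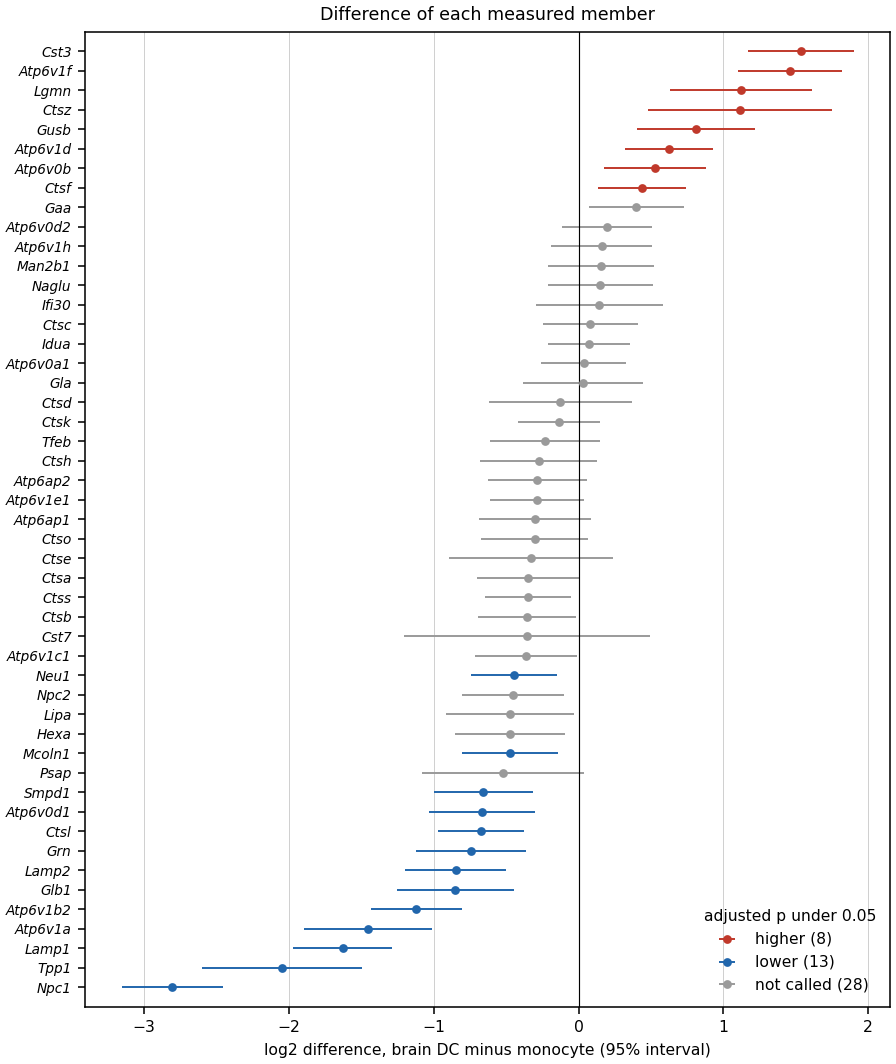
Log2 difference between brain DCs and monocytes (x axis) for each of the 49 measured lysosomal genes (y axis), with the 95% interval of the limma fit, coloured by call at an adjusted p under 0.05. The differences run from -2.80 for Npc1 to 1.53 for Cst3, and most of the 28 genes that were not called lie between -0.52 and 0.

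The lowest members were Npc1, Tpp1, Lamp1, Atp6v1a and Atp6v1b2, which act in sterol export, peptide cleavage, the lysosomal membrane and the head of the proton pump. The highest were Cst3, Atp6v1f, Lgmn and Ctsz, an inhibitor, a rotor subunit of the pump and a pair of proteases. The proteases, the glycosidases and both sectors of the pump held genes called in each direction, and in the membrane and sterol class no gene was higher.

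The promoters of called members with a CLEAR-type E-box are shown here because the same motif stood before genes that were higher and genes that were lower. The 250 bases before the start site were searched on both strands for CACGTG (the E-box, its own reverse complement), for TCACGTG or its reverse complement CACGTGA (CLEAR type, which contains the E-box), and for GAGGAAG or its reverse complement CTTCCTC (PU.1 type). A promoter was found for 41 of the 49 members. A CLEAR-type match stood in 12 of the 41 (29.3%), against 702 of 14452 measured genes (4.86%) and 968 of 27025 genes in the promoter table (3.58%). Many lysosomal genes are known to carry this motif, so its larger share in a list of lysosomal genes is no independent result. Windows were not compared at equal base composition. Among called members the match stood before 2 of 8 higher and 4 of 11 lower genes, and before 6 of 22 that were not called. The PU.1-type match stood in 6 of 41 members (14.6%) and 12.7% of measured genes. The 4 called members with a match and the largest differences are printed 5′ to 3′ on the strand of the gene, from RefSeq (GRCm38.p6), with CLEAR-type matches in capitals.
Lamp1 (lower), chr8:13159059-13159160, + strand: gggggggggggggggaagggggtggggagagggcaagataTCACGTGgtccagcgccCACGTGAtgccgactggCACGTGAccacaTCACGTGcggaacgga
Atp6v1a (lower), chr16:44139344-44139431, - strand: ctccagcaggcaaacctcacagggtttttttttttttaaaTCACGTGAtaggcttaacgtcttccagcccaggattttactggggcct
Lgmn (higher), chr12:102439096-102439182, - strand: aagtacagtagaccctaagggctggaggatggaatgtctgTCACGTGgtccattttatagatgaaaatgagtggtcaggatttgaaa
Glb1 (lower), chr9:114400989-114401075, + strand: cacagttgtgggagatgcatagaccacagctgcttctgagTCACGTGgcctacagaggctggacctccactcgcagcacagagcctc
Lamp1 had 4 matches in a stretch of 53 bases, the most of any member, and the nearest stood 10 bases before the start site. Mcoln1 (lower) and Atp6v0b (higher) had 2 each, as did Ctsd and Gla, which were not called. A match is a string of letters and not a measured binding site.

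Of 14 lysosomal proteases 3 rose in brain DCs relative to monocytes, 2 fell and 9 did not pass the threshold, with a median difference of -0.29. Among all genes 16.9% were higher and 16.9% lower. Lgmn encodes legumain, an asparaginyl endopeptidase that opens antigens and activates other cathepsins. It was at 1.01 and 0.96 in the brain DC arrays and at 0.28, -0.39 and -0.30 in the monocyte arrays, 2.17-fold higher (1.12 ± 0.21 SE, limma adjusted p = 0.00545). Ctsz, a carboxypeptidase, was at -0.05 and 0.18 against -0.89, -0.65 and -1.62, 2.16-fold higher (1.11 ± 0.27). The brain DC arrays were above each monocyte array in both genes, and the monocyte arrays were spread more widely. The 3 probe sets of Ctsz were all called higher, between 0.98 and 1.26, but as a gene it was not called with brain DC replicate 2 left out (1.00, limma adjusted p = 0.0856; 0.00633 to 0.0856 over all alternatives). Ctsf, a cysteine protease, was at 0.30 and 0.52 against -0.01, -0.09 and 0.02 (0.44 ± 0.13, limma adjusted p = 0.0371). Its probe sets were at 0.13 and 0.74, and the call ended with brain DC replicate 2 or any monocyte array left out, with arrays centred on their medians, and from the highest-mean probe set, the one at 0.13 (limma adjusted p from 0.00728 to 0.608 over all alternatives).

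Tpp1, a tripeptidyl peptidase that trims peptides from their amino end, was the protease with the largest difference. It was at -1.70 and -0.85 in brain DCs and at 0.87, 0.68 and 0.76 in monocytes, 4.14-fold lower (-2.05 ± 0.24, limma adjusted p = 6.19e-04), and its 2 probe sets gave -2.05 and -2.04. The brain DC arrays differed from each other by more than the monocyte arrays did, and both lay below all of them. Ctsl, a cathepsin that cuts the invariant chain in thymic epithelium, was at 0.35 and 0.15 against 0.99, 0.89 and 0.90, 1.60-fold lower (-0.68 ± 0.13, limma adjusted p = 0.00564). Its 2 probe sets were both called lower.

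Other cathepsins were not called. Ctss, which makes the last cuts in the invariant chain in DCs, was at 0.05 and 0.11 against 0.54, 0.33 and 0.41 (-0.35, 95% interval -0.65 to -0.05, limma adjusted p = 0.0724). The groups did not overlap, and the limma adjusted p was 0.0391 with each array centred on its median (0.0391 to 0.204 over all alternatives). Ctsd, the main aspartic protease, was at 0.33 and 0.41 inside the monocyte values of 0.82, 0.57 and 0.09 (-0.12 ± 0.21). Ctsh, an aminopeptidase, was at -0.28 ± 0.17, and the osteoclast collagenase gene Ctsk at -0.13 ± 0.12. The interval of Ctsd, -0.62 to 0.37, bounds its difference in these samples and does not show equal levels.

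Some cathepsins had probe sets that disagreed. Ctsc, which encodes the dipeptidyl peptidase that activates granule serine proteases, had a mean difference of 0.08 made from 1 probe set called lower (-1.39), 1 called higher (0.93) and 1 not called (0.71). The lower probe set was at 0.44 and 0.62 in brain DCs and 1.92, 1.92 and 1.93 in monocytes. The higher one was at 2.78 and 2.66 against 1.82, 1.83 and 1.74. Neither set of values overlapped between groups, so this gene has no single direction here, and by the median of its probe sets it was called higher (0.80, limma adjusted p = 0.00238; 0.00238 to 0.962 over all alternatives). Ctsa, the protective carboxypeptidase of the sialidase complex, had probe sets at -1.18 and 0.49, of which the first was called lower. Ctse had -1.25 and 0.60 and Ctso -1.19 and 0.58, again with the lower one called in each. Ctsb, an abundant cysteine protease, had 5 probe sets between -1.21 and 0.38, with 2 called lower and none higher.

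The thiol reductase and the cystatins were read from 1 probe set each. Cst3, which encodes cystatin C, a secreted inhibitor of cysteine cathepsins, was the highest of all members. It was at 1.31 in both brain DC arrays and at -0.12, -0.48 and -0.08 in monocytes, 2.90-fold higher (1.53 ± 0.16, limma adjusted p = 3.55e-04), and it was called under each alternative run. Cst7, the cystatin of immune cells that acts inside the endosome, was at -1.82 and -0.63 against -1.35, -0.58 and -0.68 (-0.36 ± 0.36). It had the widest interval of all members, -1.21 to 0.49, and the brain DC arrays stood on either side of the monocyte mean. Ifi30, the reductase that opens disulfide bonds of antigens, was at 0.03 and 0.56 against 0.19, -0.02 and 0.30 (0.14 ± 0.19) and was not called. Among 6 other cystatin genes, only Stfa2l1 was called, 2.21-fold higher (1.14 ± 0.13). Stefin A genes are near-identical copies, so which of them this probe set reads is uncertain.

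**Figure D2:**
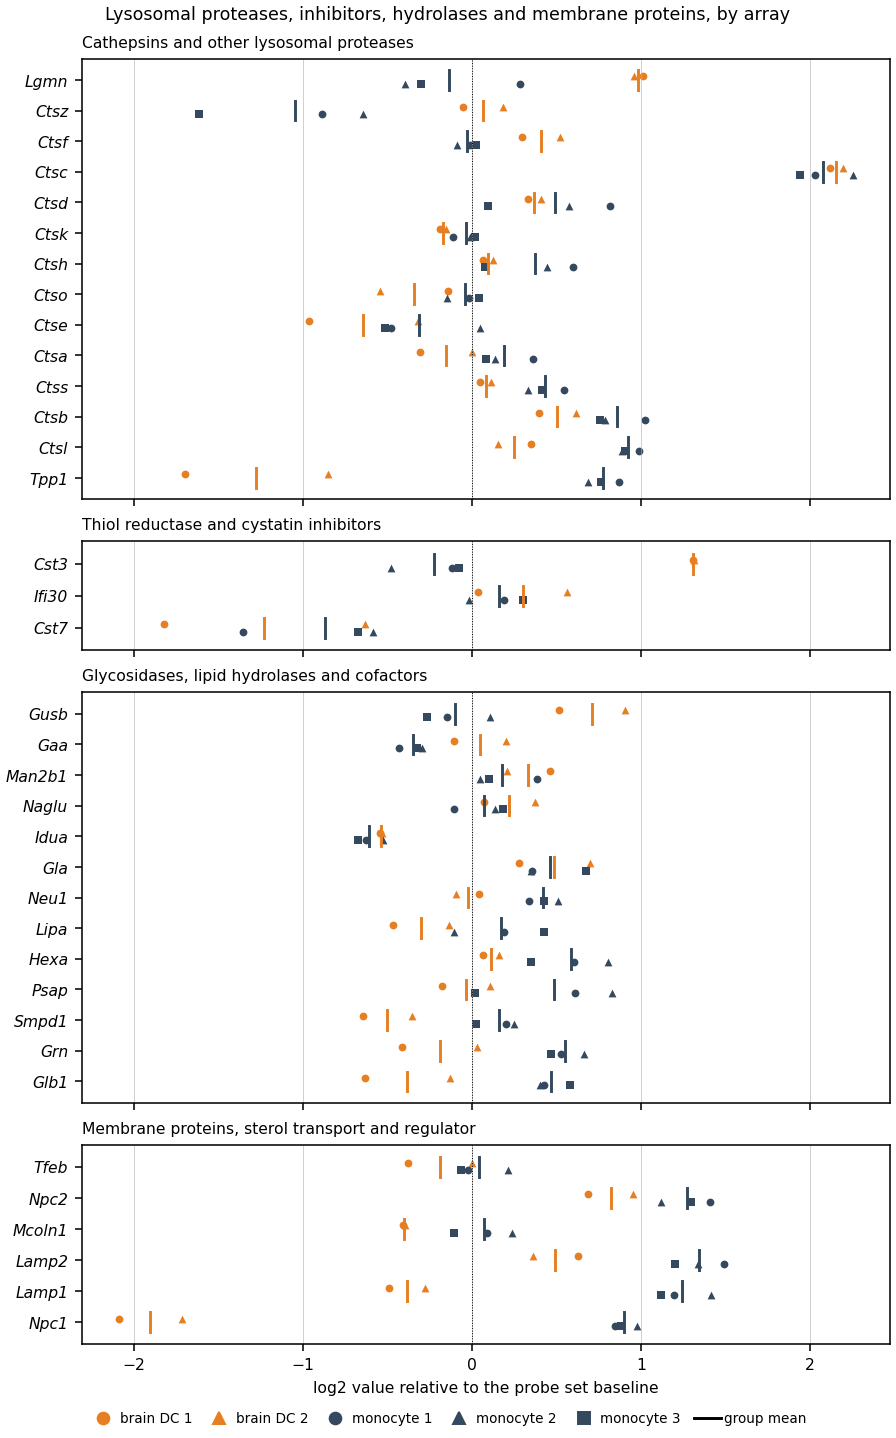
Log2 value relative to the probe set baseline (x axis) in each of the 5 arrays for 36 lysosomal genes outside the vacuolar ATPase, grouped by function. Symbols are arrays and vertical lines are group means in the colour of the group; the brain DC arrays of Npc1, Lamp1 and Tpp1 lie left of all monocyte arrays, and those of Cst3 and Lgmn lie right of them.

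Among the 13 glycosidases, lipid hydrolases and their cofactors, 1 gene was higher, 4 were lower and 8 were not called, with a median of -0.45. The shares over all genes were 16.9% higher and 16.9% lower. Glb1, the acid beta-galactosidase, was at -0.63 and -0.13 in brain DCs and at 0.43, 0.40 and 0.58 in monocytes, 1.80-fold lower (-0.85 ± 0.17, limma adjusted p = 0.00766). Grn, which encodes progranulin, a precursor whose fragments support lysosomal enzymes, was at -0.41 and 0.03 against 0.52, 0.66 and 0.47 (-0.74 ± 0.16), with 3 of 3 probe sets called lower. In both genes the groups were separate, with brain DC replicate 1 the lowest array. With that array left out, Grn was not called (-0.52, limma adjusted p = 0.0562; 0.00622 to 0.0562 over all alternatives).

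Smpd1, the acid sphingomyelinase, was at -0.65 and -0.35 against 0.20, 0.25 and 0.02 (-0.66 ± 0.15), and 1 of its 2 probe sets was called. It too was not called with brain DC replicate 1 left out (-0.51) or from its highest-mean probe set (-0.34), with a limma adjusted p from 0.00276 to 0.155 over all alternatives. Neu1, a sialidase, was at 0.04 and -0.09 against 0.34, 0.51 and 0.42 (-0.45 ± 0.13, limma adjusted p = 0.0307). That mean joins 2 probe sets called lower (-1.12 and -0.96) and 1 called higher (0.74), and leaving out any array of the 5 ended the call (limma adjusted p 0.0543 to 0.118).

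The single higher gene of the class was Gusb, which encodes beta-glucuronidase. It was at 0.51 and 0.91 against -0.15, 0.10 and -0.27, 1.76-fold higher (0.81 ± 0.17, limma adjusted p = 0.00986). One probe set carried this difference (1.53) and the other was at 0.09. It was not called from the probe set at 0.09, its highest-mean one, or with brain DC replicate 2 left out (0.62, limma adjusted p = 0.0542; 0.00802 to 0.792 over all alternatives). The genes that were not called ran from Gaa, the acid alpha-glucosidase of glycogen breakdown (0.40, interval 0.07 to 0.73), to Psap, the precursor of the saposins (-0.52, interval -1.08 to 0.04). With monocyte replicate 3 left out Psap was called lower (-0.75, limma adjusted p = 0.0205; 0.00996 to 0.416 over all alternatives). Hexa (-0.47, limma adjusted p = 0.0577) and the acid lipase gene Lipa (-0.47, limma adjusted p = 0.0932) lay near the threshold. Hexa was called lower with arrays centred on their medians (-0.54) or monocyte replicate 3 left out (-0.59), and Lipa with monocyte replicate 2 left out (-0.61). Over all alternatives the limma adjusted p of Hexa ran from 0.0281 to 0.190 and that of Lipa from 0.0473 to 0.489. Gaa was called higher with brain DC replicate 1 left out (0.55, limma adjusted p = 0.0407; 0.0407 to 0.275 over all alternatives). Idua, Gla, Man2b1 and Naglu were between 0.03 and 0.16, with overlapping groups.

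The membrane and sterol class had 4 genes lower, 0 higher and 2 not called, with a median of -0.66. Beside these counts, 16.9% of all genes were lower and 16.9% higher. Npc1, the membrane protein that exports cholesterol from the lysosome, had the largest difference of any member and was read from 1 probe set. It was at -2.09 and -1.72 in brain DCs and at 0.85, 0.97 and 0.88 in monocytes, 6.98-fold lower (-2.80 ± 0.15, limma adjusted p = 1.97e-05). Its soluble partner Npc2, which hands cholesterol to Npc1, was at 0.69 and 0.95 against 1.41, 1.12 and 1.29 (-0.45 ± 0.15, limma adjusted p = 0.0524) and was not called. It was called lower from its highest-mean probe set (-0.88), with arrays centred on their medians (-0.52) and with brain DC replicate 2 left out (-0.59), with a limma adjusted p from 0.0170 to 0.289 over all alternatives. The groups of both genes were separate, and the difference of Npc1 was far larger than that of Npc2, a contrast that was not tested as such.

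Lamp1 and Lamp2 encode the abundant glycoproteins that line the lysosomal membrane. Lamp1, whose promoter with 4 CLEAR-type matches is printed above, was at -0.49 and -0.28 against 1.20, 1.41 and 1.12, 3.09-fold lower (-1.63 ± 0.15, limma adjusted p = 2.02e-04). Lamp2 was at 0.63 and 0.36 against 1.49, 1.34 and 1.20, 1.80-fold lower (-0.85 ± 0.15), and 4 of its 4 probe sets were called lower. Both were called under each alternative run. Mcoln1, the cation channel through which lysosomes release calcium, was at -0.41 and -0.40 against 0.09, 0.23 and -0.11 (-0.48 ± 0.14, limma adjusted p = 0.0369). Leaving out either brain DC array, or monocyte replicate 1 or 2, ended the call (limma adjusted p 0.0967 to 0.114), as did leaving out probe sets that can bind other transcripts (-0.43, limma adjusted p = 0.0879).

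Tfeb, the MiT factor best known for inducing lysosomal genes, was at -0.38 and 0.00 against -0.03, 0.21 and -0.07 (-0.23 ± 0.16, limma adjusted p = 0.314). The groups overlapped. The other genes of this family, which were on a list of regulators and not among the 50, were lower. Tfec, the family member of macrophages and related cells, was at -0.44 and -0.75 in brain DCs and at 3.70, 4.08 and 3.39 in monocytes, 19.9-fold lower (-4.32 ± 0.21, limma adjusted p = 1.41e-05). Mitf was at -0.57 and -0.36 against 1.23, 0.71 and 1.61, 3.13-fold lower (-1.65 ± 0.25), and was not called from its highest-mean probe set alone (-1.14, limma adjusted p = 0.0947; 9.30e-04 to 0.0947 over all alternatives). Tfe3 had a smaller difference (-0.50 ± 0.13, limma adjusted p = 0.0244), and leaving out brain DC replicate 2 or monocyte replicate 1 or 3 ended its call (limma adjusted p 0.0673 to 0.107). Zkscan3, described as a repressor of lysosomal and autophagy genes, was also lower, 3.69-fold (-1.88 ± 0.20).

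The vacuolar ATPase has a cytosolic V1 sector that splits ATP and a membrane V0 sector that carries protons. Of 13 measured subunits, 3 were higher, 3 were lower and 7 were not called, beside 16.9% higher and 16.9% lower over all genes. Both sectors held calls in each direction. Atp6v1a and Atp6v1b2, the A and B subunits that form the ATP-splitting head, were lower. Atp6v1d and Atp6v1f, the D and F subunits of the central shaft that turns inside that head, were higher. Whether calls follow the place of a subunit in the pump was not tested.

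Atp6v1a was at -0.19 and 0.31 in brain DCs and at 1.49, 1.72 and 1.34 in monocytes, 2.74-fold lower (-1.46 ± 0.19, limma adjusted p = 0.00108), and its 2 probe sets gave -1.48 and -1.44. Atp6v1b2 was at -0.22 and -0.16 against 1.06, 0.95 and 0.79, 2.17-fold lower (-1.12 ± 0.13, limma adjusted p = 7.44e-04). Its 4 probe sets were less alike, at -2.42, -1.70, -0.89 and 0.53, with 2 called lower and the last called higher. Atp6v1f was at 0.40 and 0.15 against -0.99, -1.23 and -1.33, 2.75-fold higher (1.46 ± 0.15, limma adjusted p = 4.37e-04). Atp6v1d was at 0.59 and 0.61 against 0.08, -0.01 and -0.16, 1.54-fold higher (0.63 ± 0.13, limma adjusted p = 0.00853), with probe sets between 0.42 and 0.83. In these 4 genes the groups were separate, and the call was kept under each alternative run.

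Atp6v1c1, Atp6v1e1 and Atp6v1h, the remaining V1 genes of the list, were not called. Atp6v1h was at 0.16 ± 0.15. Atp6v1c1 was at -0.36 ± 0.15, with 1 of its 3 probe sets called lower, and was called lower from its highest-mean probe set (-0.60, limma adjusted p = 0.0350; 0.0350 to 0.331 over all alternatives). Atp6v1e1 had a mean of -0.29 ± 0.14 from probe sets between -0.98, called lower, and 0.56, called higher. In the membrane sector, Atp6v0d1, which couples the shaft to the proton-carrying ring, was at -0.20 and 0.21 against 0.68, 0.76 and 0.58, 1.59-fold lower (-0.66 ± 0.16, limma adjusted p = 0.0148). It was not called with brain DC replicate 1 left out (-0.46, limma adjusted p = 0.0759; 0.00866 to 0.0759 over all alternatives). Atp6v0b, a subunit of the ring, was at 0.61 and 0.29 against 0.04, -0.21 and -0.07 (0.53 ± 0.15, limma adjusted p = 0.0312). Leaving out brain DC replicate 1 or any monocyte array ended that call (limma adjusted p 0.0504 to 0.157), as did reading it from its highest-mean probe set, which was at 0.13. Atp6v0a1 (0.03), the osteoclast isoform Atp6v0d2 (0.20) and the accessory subunits Atp6ap1 (-0.30) and Atp6ap2 (-0.28) were not called.

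**Figure D3:**
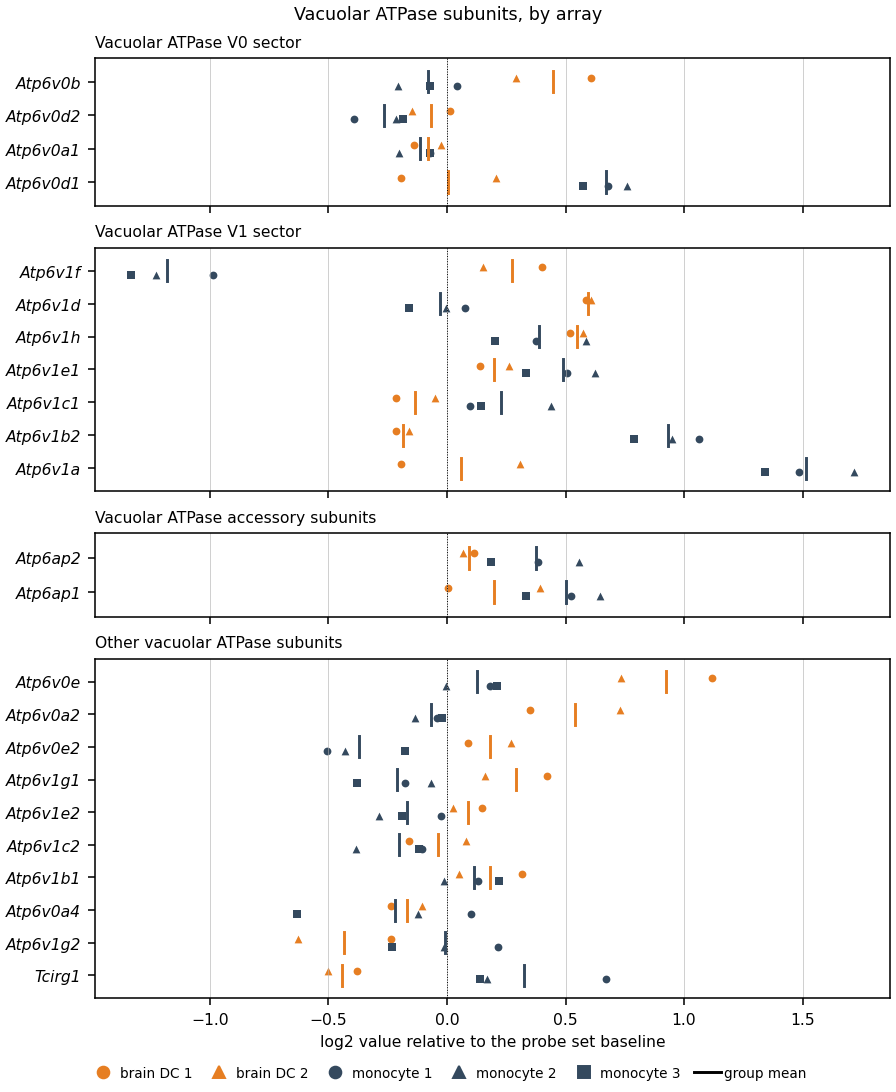
Log2 value relative to the probe set baseline (x axis) in each of the 5 arrays for 13 vacuolar ATPase subunits of the list and 10 further subunits, grouped by sector. Symbols are arrays and vertical lines are group means in the colour of the group; Atp6v1f and Atp6v1d are right in brain DCs, while Atp6v1a, Atp6v1b2 and Atp6v0d1 are left.

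Of 10 further subunits outside the list, 4 were higher, 1 was lower and 5 were not called. Atp6v0e, a small membrane subunit, was at 1.12 and 0.73 against 0.18, -0.01 and 0.21, 1.74-fold higher (0.80 ± 0.16). The a subunit of V0 has isoforms that steer the pump to different membranes. Its a2 isoform, Atp6v0a2, was 1.52-fold higher (0.61 ± 0.15), and its a3 isoform, Tcirg1, which serves lysosomes and osteoclasts, was 1.70-fold lower (-0.77 ± 0.18), while Atp6v0a1 was at 0.03. Over all alternatives the limma adjusted p ran from 0.0114 to 0.123 for Atp6v0a2, which was not called with replicate 2 of either group left out, or by the median of its probe sets. It ran from 0.00758 to 0.0729 for Tcirg1, which was not called with brain DC replicate 2 left out. The other higher subunits were Atp6v0e2 (0.55 ± 0.15) and Atp6v1g1 (0.50 ± 0.15), named after their values were seen. Atp6v0e2 was not called with replicate 2 of either group or replicate 1 of the monocytes left out (limma adjusted p 0.0194 to 0.111 over all alternatives). The mean of Atp6v1g1 joins 1 probe set called higher (1.53) and others at 0.23 and -0.26 that were not called, and by their median it was not called (0.36, limma adjusted p = 0.188; 0.0221 to 0.293 over all alternatives).

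**Figure D4:**
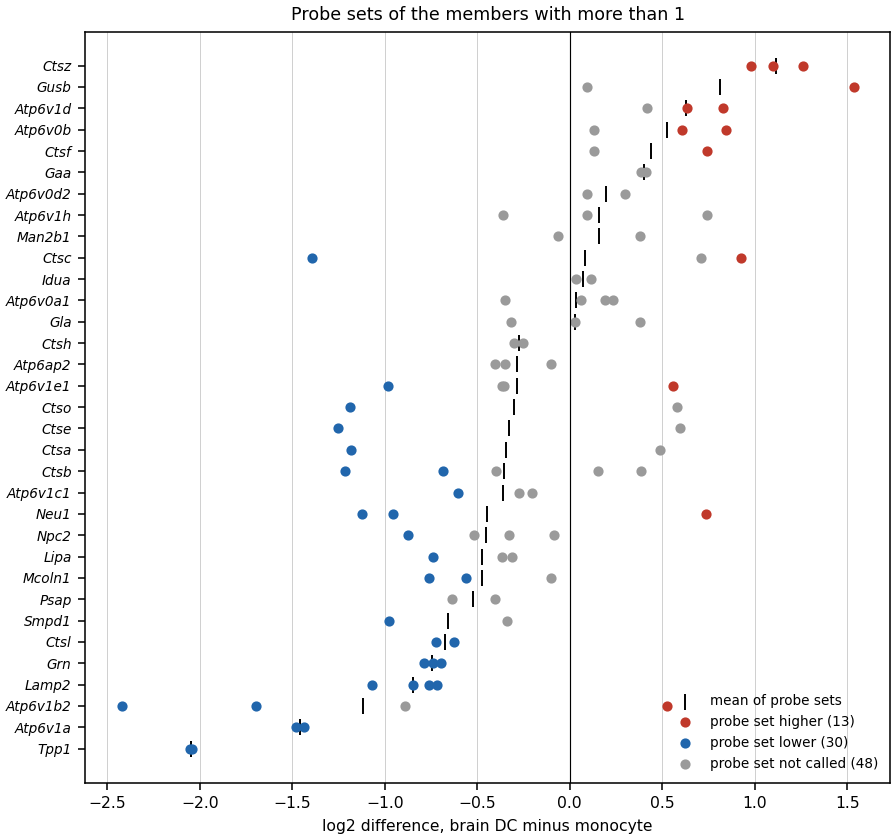
Log2 difference of each probe set (points, x axis) for the 33 members with more than 1 probe set (y axis), coloured by the call of the probe set, with the mean used for the gene as a tick. Tpp1, Atp6v1a, Lamp2, Grn and Ctsz have probe sets on 1 side, while Ctsc, Neu1, Atp6v1b2 and Atp6v1e1 have probe sets called in both directions.

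The members were carried by 107 probe sets, and 33 members had more than 1. The called members read from 1 probe set were Lgmn, Cst3, Glb1, Npc1, Lamp1, Atp6v0d1 and Atp6v1f. Other summaries of probe sets could not change the differences of these genes. Tested one by one, 16 probe sets were higher and 34 lower, where 13.5% and 16.8% of all probe sets were. Without brain DC replicate 1, these counts were 10 and 22, where 3729 and 4527 of all 34945 probe sets were then higher and lower. In 4 of the 33 members (12.1%), Ctsc, Neu1, Atp6v1b2 and Atp6v1e1, probe sets were called in both directions, which happened in 3.37% of all genes with more than 1. Counted without regard to calls, probe sets lay on both sides of 0 in 36.4% of the 33 members and in 45.0% of all such genes. The median range between a member's probe sets was 0.58, close to the 0.60 of all such genes. Of the 28 members that were not called as genes, 9 had at least 1 probe set called lower and 2 had at least 1 called higher. The matching share over all genes that were not called was not worked out, so whether these counts are unusual cannot be read. The probe sequences were not analysed here, so which transcript ends each probe set reads is not known.

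Genes of the wider pathway were read from companion lists. Of 109 measured, 22 were higher, 32 were lower and 55 were not called, with a median of -0.15. These calls, at 49.5% of the genes, stood beside 33.8% of all genes and 42.9% of the 49 members. Among 30 further hydrolases, 9 were higher and 8 lower. Acp5, the tartrate-resistant acid phosphatase, was at 0.96 and 0.80 against -1.02, -1.13 and -1.43, 4.22-fold higher (2.08 ± 0.16), and Gm2a, the activator that presents gangliosides to hexosaminidase, was 2.99-fold higher (1.58 ± 0.18). Hgsnat, an acetyltransferase of heparan sulfate breakdown, was at -0.02 and 0.47 against 2.60, 2.58 and 2.70, 5.28-fold lower (-2.40 ± 0.17). Of 7 osteoclast markers, of which Acp5 is one, 3 were higher and 1 lower, and their part in its difference was not tested. Of 22 further membrane proteins, 2 were higher and 9 lower. The sialic acid exporter Slc17a5 (-1.71 ± 0.21) and Ostm1, the partner of the lysosomal chloride transporter (-1.45 ± 0.18), were lower, and Laptm4b was higher but unequal between the brain DC arrays (0.03 and 1.24 against -1.29 to -0.83). The other higher gene was the channel gene Mcoln2 (0.79 ± 0.24), a relative of Mcoln1 named after its value was seen. It was also unequal, at 0.91 and 0.06 in brain DCs against -0.45 to -0.22, and was not called with brain DC replicate 1 left out (0.37).

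**Figure D5:**
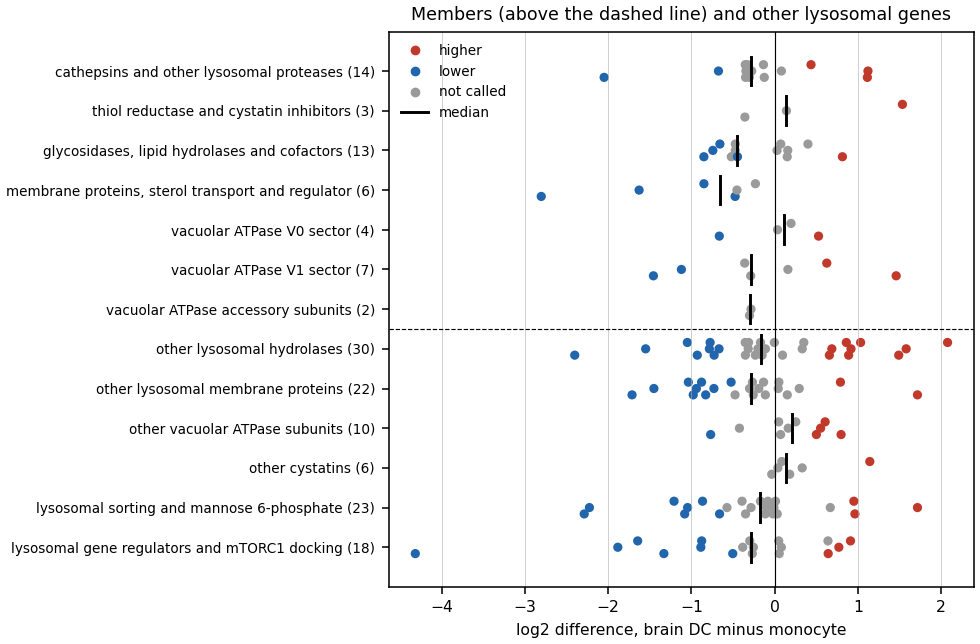
Log2 difference between brain DCs and monocytes (x axis) for each measured gene (points, coloured by call) of the 7 functional classes of the list and of 6 companion lists below the dashed line (y axis, number of genes in brackets), with the median of each as a tick. The membrane and sterol class has the lowest median, -0.66, and the lowest single point is Tfec at -4.32.

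New lysosomal enzymes reach the organelle by sorting receptors. Of 23 sorting genes, 3 were higher, 7 lower and 13 not called. Igf2r, the large mannose 6-phosphate receptor that carries most hydrolases, was at 1.00 and 1.25 against -0.52, -0.78 and -0.47, 3.28-fold higher (1.71 ± 0.15, limma adjusted p = 1.95e-04). M6pr, the smaller mannose 6-phosphate receptor, was not called (0.67 ± 0.22, limma adjusted p = 0.0521; 0.0191 to 0.148 over all alternatives). Sort1, sortilin, which binds progranulin and prosaposin, was at -1.49 and -1.09 against 0.80, 1.29 and 0.91, 4.88-fold lower (-2.29 ± 0.19), and Sorl1 was 4.67-fold lower (-2.22 ± 0.16). The 3 probe sets of each were all called lower. The other higher sorting genes, Gnptg (0.96 ± 0.15) and the adaptor subunit gene Ap1b1 (0.95 ± 0.16), were named after their values were seen. Other subunit genes of that adaptor, also named after their values were seen, were Ap1s2, which was lower (-1.21 ± 0.13), and Ap1g1 and Ap1s1, which were not called. Gnptg encodes a subunit of the enzyme that makes the mannose 6-phosphate tag, and Gnptab, which encodes the catalytic part of that enzyme, was lower (-0.66 ± 0.18), though not with brain DC replicate 1 left out (-0.54, limma adjusted p = 0.123; 0.00933 to 0.123 over all alternatives). Among 18 regulators and mTORC1 docking genes, 3 were higher and 7 lower. The higher ones, Lamtor2 (0.91 ± 0.16), Lamtor4 (0.77 ± 0.20) and Lamtor5 (0.64 ± 0.17), encode parts of the Ragulator complex on the lysosomal surface, while Lamtor3 of the same complex was lower (-0.89 ± 0.15). These were also named after their values were seen. Lamtor4 was at 0.47 and -0.14 in brain DCs against -0.77 to -0.49, and with brain DC replicate 1 left out neither Lamtor4 (0.46, limma adjusted p = 0.0983; 0.00562 to 0.0983 over all alternatives) nor Lamtor5 (0.50, limma adjusted p = 0.118; 0.00816 to 0.118 over all alternatives) was called. The MiT family genes Tfec, Mitf and Tfe3 were among the lower ones.

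The brain DC arrays differed from each other in level over the list. Replicate 1 was below replicate 2 in 39 of 49 members (79.6%), against 52.6% of all genes. The median of replicate 1 minus replicate 2 was -0.17 over members and -0.02 over all genes. The mean over all members was -0.03 in replicate 1 and 0.15 in replicate 2, and 0.32, 0.34 and 0.22 in the monocyte arrays, so both brain DC arrays lay below all monocyte arrays. Of the 21 called members, 12 kept their call under each alternative run: Lgmn, Ctsl, Tpp1, Cst3, Glb1, Npc1, Lamp1, Lamp2, Atp6v1a, Atp6v1b2, Atp6v1d and Atp6v1f.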

How the data were processed

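Total RNA from sorted mouse cells was hybridised to Affymetrix arrays, 1 array per sample. The deposited log2 values were made by the authors with RMA, per the submitters' processing notes. RMA corrects background, normalises by quantiles and summarises probes. The centring, the arrays normalised together and the RMA version are not stated in the labels or notes used, and the log base is inferred from the range of the values. Array medians lay between -0.05 and 0.00. Since values are centred, no filter on dim genes could be run, and levels of different genes cannot be compared.

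Of 45101 probe sets, 64 controls were left out, 34945 had 1 gene symbol, 932 had several and 9160 had none. A gene's value is the mean of its probe sets. Differences were tested with limma 3.58.1 in R 4.3.3 (lmFit, eBayes, no covariate) over 18193 genes with Benjamini-Hochberg adjustment. There were 3 residual and 4.43 prior degrees of freedom. The number of arrays limits the precision. Scripts were tested on simulated data.

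The members, lists, tests and alternatives were chosen with earlier results of these data known. All members could be named. From each companion list the rule took up to 3 called genes with the largest difference, and other genes named from them were chosen after their values were seen. The promoters are RefSeq windows (GRCm38.p6), matched by symbol and searched over the 250 bases before the start. Other summaries of probe sets, scalings, a robust fit, a replicate block and each array left out were tried as alternatives. The highest-mean probe set was picked on the centred values and not on signal. The replicate numbers of the labels were not taken as pairs.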

Additional observations from a re-analysis of the deposited data

How the results depend on the processing

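Alternatives were other summaries of probe sets, quantile normalisation, median centring of arrays, robust eBayes, the replicate number as a block, and each array left out in turn. No called member changed sign under any of these. Atp6v0b has no value without _x_at and _s_at probe sets, which can bind other transcripts. Outside the list, 2 genes that were not called turned over and were called from the highest-mean probe set alone: Fnip1 (1.08, limma adjusted p = 0.0267; -0.27 by the mean of probe sets) and Rab7 (-0.66, limma adjusted p = 0.0132; 0.01 by the mean). With that summary 5 members were higher instead of 8. Leaving out 1 array gave 5 to 8 higher and 8 to 14 lower members, 16 to 20 higher and 29 to 31 lower companion genes, and 10 to 15 higher and 22 to 32 lower member probe sets. Over all genes 12.3% to 13.5% were then higher and 2371 to 2806 of 18193 lower, and over all probe sets 9.48% to 11.2% were higher and 4527 to 5364 of 34945 lower. Median centring moved the split of all genes from 16.9% higher and 16.9% lower to 13.8% and 18.7%. With the replicate block 7 members were higher and 14 lower, beside 13.8% and 16.5% of all genes. It ended the calls of Ctsf (limma adjusted p = 0.0804), Neu1 (0.0888), Tfe3 (0.0523) and Atp6v1g1 (0.117) among genes named here and made calls of Hexa (0.0281) and Psap (-0.75, limma adjusted p = 0.00996). No brain DC array has replicate number 3, so the block takes monocyte replicate 3 out of the difference. Its differences are those found with that array left out, -0.75 for Psap in both, so the block is not a separate alternative in that respect. The correlation of deviations between same-numbered arrays was 0.0446 and 0.0876, so the numbers are not shown to pair the arrays. Apart from the array that the block takes out, the cause of the changes under the alternatives was not tested. With a median SE of 0.15 for a member, the smallest called difference among them was that of Ctsf (0.44). The baseline keeps no signal over background, so detection of a transcript cannot be judged.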
